A study of Mus musculus with 2 samples.

Results

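Bone morphogenetic protein (BMP) signalling was examined in explanted mouse ureters after blockade of WNT secretion, across 10 genes that encode BMP ligands (*Bmp2*, *Bmp4*, *Bmp5*, *Bmp7*), type I receptors (*Bmpr1a*, *Bmpr1b*), secreted antagonists (*Nog*, *Grem1*) and transcriptional targets (*Id1*, *Id2*). The members were taken by gene name, with every probe that the array carries for them, which gave 12 of 39429 probes and 10 of 29924 gene names. Ureters were dissected from wildtype newborn (P0) pups of the NMRI strain and kept for 18 h on transwell membranes. The medium, which held fetal calf serum, contained either 5 µM IWP-2 or only the vehicle, DMSO at 1:1000 (control). IWP-2 inhibits PORCN, the acyltransferase that WNT ligands need for their release from the producing cell. RNA from 4 pools of ureters was hybridised on 2 two-colour arrays. Replicate 1 set a female IWP-2 pool (red dye) against a female control pool (green dye), and replicate 2 set a male IWP-2 pool (green) against a male control pool (red). Replicate, sex, dye orientation and array therefore changed together and cannot be told apart. Each pool mixed several ureters, and the tissue was whole ureter with all its layers.

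BMP ligands are secreted dimers that bind pairs of type I and type II serine/threonine kinase receptors, which phosphorylate SMAD1, SMAD5 and SMAD9. These join SMAD4 in the nucleus and switch on target genes, among which the *Id* genes, encoding inhibitors of DNA-binding helix-loop-helix factors, are widely used as a readout. Extracellular antagonists such as Noggin and Gremlin bind the ligands and keep them from their receptors. In the ureter, BMP4 from the mesenchyme is known for its role in smooth muscle and urothelial development.

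Each gene was read by 1 or 2 probes of 60 bases, so the place of the probe in the transcript set what was measured. The last 30 bases of the probes on which the results turn are given here, 5′ to 3′, with the mm9 position that the array files list for that stretch. Capitals mark the polyadenylation hexamer AATAAA, which the last 30 bases of 10.6% of all probes on the array held. An exon or UTR annotation of mm9 was not used here.
Bmp4, bright probe (chr14:47003391-47003420, minus strand): tccctatagctggacttttatcttaaaaaa
Bmp4, dim probe (chr14:47003198-47003227, minus strand): gaaAATAAAatgagtcattattttaaagat
Bmp5 (chr9:75746474-75746503, plus strand): aaatcaacctgggtcatttcatctctctat
Bmpr1b, bright probe (chr3:141500694-141500723, minus strand): caaatgaaaagcagttaaacagtgtgtatg
Bmpr1b, dim probe (chr3:141503374-141503403, minus strand): tgggtaacttgttcaagatatgatgcatgt
Id1 (chr2:152563113-152563142, plus strand): ttttttgttgttattaaacaaacactttag
Id2 (chr12:25778904-25778933, minus strand): gttttcttgtatagtggcagaaataaccta
Nbl1 (chr4:138638223-138638252, minus strand): cccctggacccgagtgttttcatgAATAAA
The probes of *Bmp4* lay 193 bases apart in the genome, with the dim probe further downstream in the direction of transcription. Its G and C content was 15%, against 38.3% in the bright *Bmp4* probe and a median of 41.7% over all probes. The *Bmpr1b* probes lay 2680 bases apart, with the bright probe downstream.

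Signals are fluorescence in arbitrary units after background subtraction and dye normalization, averaged over up to 4 spots, with values under 15 set to 15 (the floor). They compare conditions for 1 probe and not 1 probe with another, and the arrays were normalized separately, so a level set across arrays also carries the difference between arrays. A probe was tested when its mean signal exceeded 100 in at least 1 condition, which held for 18403 probes. The change is the log2 of IWP-2 over control within an array, and the mean of the 2 arrays was tested against 0 with limma (Benjamini-Hochberg adjusted p under 0.05 over all probes tested). WNT targets were lower in the treated pools. *Axin2*, a feedback inhibitor induced by WNT signalling, gave 181 in control and 42.2 with IWP-2 in replicate 1, and 154 and 46.7 in replicate 2 (mean change −1.91, SE 0.10, limma adjusted p = 0.0016). *Lgr5*, a receptor gene induced by WNT signalling, had a mean change of −3.12 (SE 0.069, limma adjusted p = 3.04e-05), with the signal at the floor in the IWP-2 pool of replicate 1. All 9 tested probes of 7 WNT response genes, of 8 listed, were called lower, against 0.772% of all probes tested called in either direction. The study reported most of these genes as lowered in these same arrays, so their fall is no independent check of the treatment. In whole ureters fewer cells of a type and less RNA per cell cannot be told apart. Smooth muscle (9 of 9) and urothelial (10 of 10) marker genes passed the signal threshold, and 4 of 8 kidney marker genes stayed at the floor in all 4 pools, with *Six2*, a marker of nephron progenitors, the only kidney gene past the threshold.

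Of the 12 member probes, 7 passed the signal threshold, 1 each for *Bmp2*, *Bmp4*, *Bmp5*, *Bmp7*, *Bmpr1a*, *Id1* and *Id2*. By limma 0 of these 7 were called, against 0.772% of all probes tested (142 of 18403, of which 100 were lower and 42 higher). At an unadjusted p under 0.05, 3 of the 7 passed (*Bmp5* lower, *Id1* and *Id2* higher), against 13.4% of all probes tested. A filter with the study's thresholds, a control signal over 100 and a 1.5-fold change, here required in the same direction in both arrays and applied to rises and falls, took 0 of 7 member probes and 0.401% of the 17961 probes with such control signals. The 95% intervals of all 7 members lay inside a 1.5-fold change either way (0.585 on the log2 scale), as did those of 96.1% of all probes tested. These intervals use limma's moderated variance, drawn mostly from all probes tested, and not the spread of each probe's own arrays alone. The median change of the 7 was 0.04, beside −0.0025 over all probes tested. The direction was the same in both arrays for 3 of the 7 members, and for 55.6% of all probes tested.

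**Figure D1:**
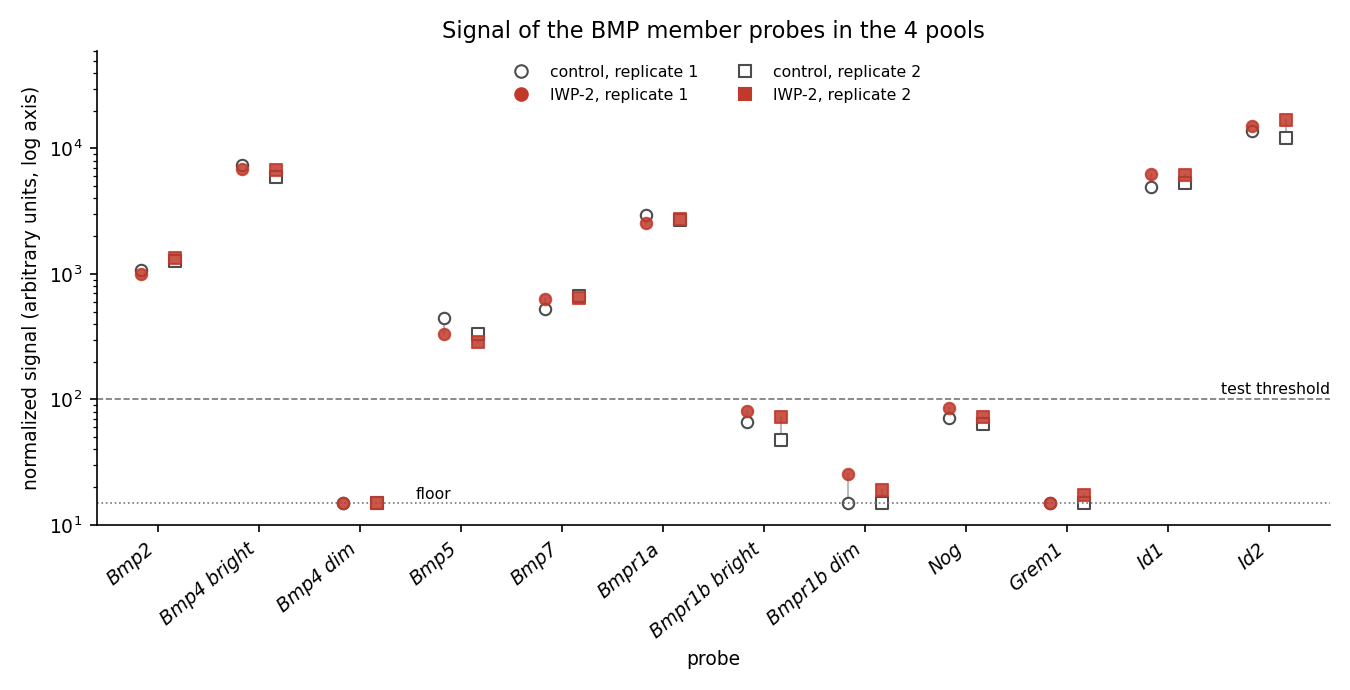
Signal of each member probe (log axis, arbitrary units) in the control pools (open symbols) and IWP-2 pools (red), with circles for replicate 1 and squares for replicate 2, joined within an array. The dashed line is the test threshold of 100 and the dotted line the floor of 15; *Bmpr1b*, *Nog*, *Grem1* and the dim *Bmp4* probe lie under the threshold in all 4 pools.

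Of the ligands, the bright probe of *Bmp4*, whose product is the main BMP ligand of ureteric mesenchyme, gave 7319 in the control and 6817 in the IWP-2 pool of replicate 1, and 5929 and 6738 in replicate 2. The signal was lower with IWP-2 in the female pair and higher in the male pair, and the control pools enclosed the treated ones. The mean change was 0.04 (SE 0.088, 95% interval −0.17 to 0.26, limma adjusted p = 0.969). Spots within an array agreed far more closely than the arrays did, with changes of −0.12 to −0.08 over 4 spots in replicate 1 and 0.18 to 0.19 over 3 spots in replicate 2. The dim *Bmp4* probe lay at the floor in all 4 pools and was not well above background in any, so it gave no level.

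*Bmp2*, a ligand closely related to *Bmp4*, read 1075 in control and 1007 with IWP-2 in replicate 1, and 1262 and 1342 in replicate 2. Here too the pairs moved in opposite directions, by −0.09 and 0.09, and the groups overlapped (mean −0.0025, SE 0.076, 95% interval −0.19 to 0.18, limma adjusted p = 0.998). *Bmp7*, a ligand of the other main BMP subgroup, read 524 and 636 in replicate 1, and 665 and 637 in replicate 2. Its signal was higher with IWP-2 in the female pair and slightly lower in the male pair, and the groups overlapped (mean 0.11, SE 0.096, 95% interval −0.12 to 0.34, limma adjusted p = 0.795).

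*Bmp5*, which belongs to the same subgroup as *Bmp7*, was the ligand with the same direction in both arrays. Its signal was 445.5 in the control and 332 in the IWP-2 pool of replicate 1, and 332 and 285 in replicate 2. Within each pair the treated pool was lower, but the male control pool equalled the female treated pool at this rounding, so the groups met. The changes of −0.43 and −0.22 gave a mean of −0.32, which is 1.25-fold lower (SE 0.079, 95% interval −0.51 to −0.13, unadjusted p = 0.0063). This did not pass the threshold after adjustment over all probes (limma adjusted p = 0.154). All 4 spots of each array had the direction of their array. The value was below 0 under each of the 16 alternative settings, between −0.43 and −0.22. The ends of this range are the single arrays. Settings that changed only the probes tested or the variance model could not move the value, so the tally is no separate support.

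Among the receptors, *Bmpr1a*, the type I receptor gene that is widely expressed, read 2935 in control and 2536 with IWP-2 in replicate 1, and 2692 and 2733 in replicate 2. The female pair was lower with IWP-2 and the male pair hardly differed, so the groups overlapped (mean −0.09, SE 0.082, 95% interval −0.29 to 0.10, limma adjusted p = 0.793).

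*Bmpr1b*, a type I receptor gene with a narrower range of expression, was dim and was not among the probes tested. Its bright probe read 66.1 in the control and 81.5 in the IWP-2 pool of replicate 1, and 47.2 and 72.7 in replicate 2. Both treated pools lay above both control pools. Its dim probe read 15 (the floor) and 25.6 in replicate 1, and 15 and 18.9 in replicate 2. It also had both treated pools above both control pools, and all 4 spots of each probe were higher with IWP-2 in each array. Both probes were well above background in all 4 pools by the scanner software. When such probes were tested too, if above the floor in at least 1 pool, the mean change of the bright probe was 0.46 (SE 0.10) and did not pass (limma adjusted p = 0.156). The dim probe, with a mean change of 0.55, was above the floor only in the IWP-2 pools, so no test is given for it. Without the floor the dim probe's control signals were 14.2 and 12.8, and with a floor of 1 its mean change was 0.71. The value was above 0 in all 16 alternative settings for the bright probe and in all 15 for the dim probe, with the lowest limma adjusted p of the bright probe at 0.0970. As for *Bmp5*, this tally is no separate support. The probes read 1 gene in the same pools and are not independent replicates.

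The secreted antagonists were dim as well. *Nog*, which encodes Noggin, read 71.3 in control and 85.5 with IWP-2 in replicate 1, and 63.2 and 72.8 in replicate 2. The treated pools lay just above the control pools (mean 0.23, SE 0.072, limma adjusted p = 0.267 in the fit that took in the dim probes). *Grem1*, which encodes Gremlin, was at the floor in 3 of the 4 pools and at 17.2 in the IWP-2 pool of replicate 2. Before the floor was set it read 7.23 and 11.6 in replicate 1, and 14.9 and 17.2 in replicate 2. Its mean change was 0.10 with the floor and 0.44 with a floor of 1, so its size depended on the floor.

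**Figure D2:**
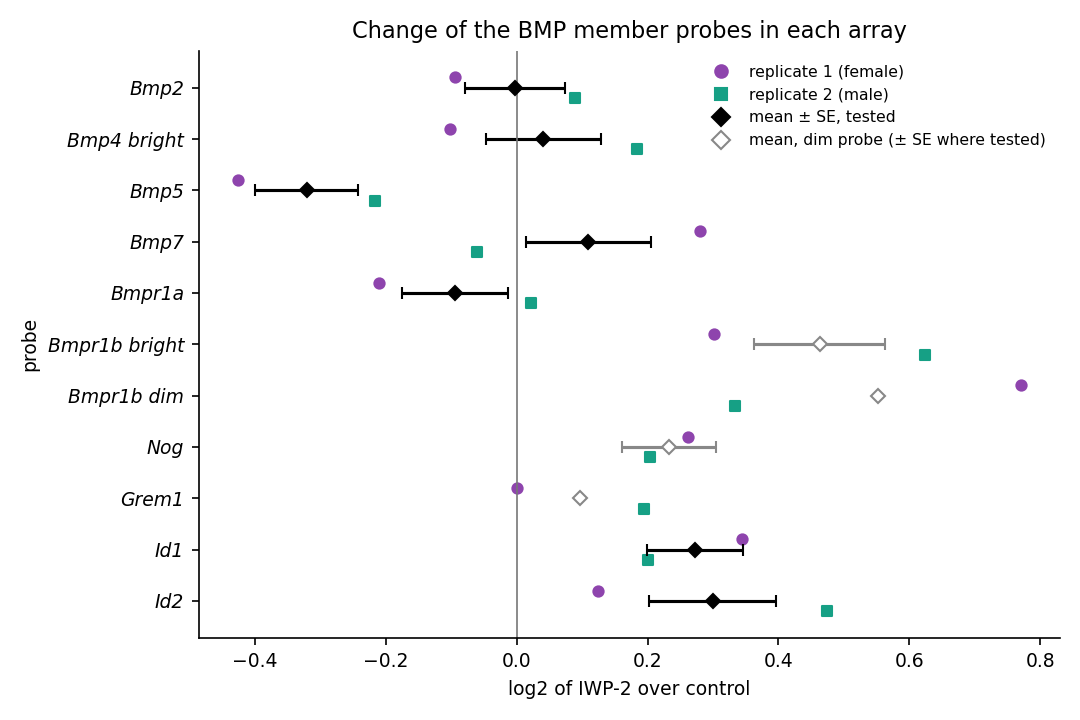
Log2 of IWP-2 over control for each member probe in replicate 1 (circles, female) and replicate 2 (squares, male), with the mean and its limma SE (diamonds; open for dim probes, with the SE from the fit that took them in, and no SE where only IWP-2 pools were above the floor). *Bmp5* is to the left of 0 in both arrays, *Bmpr1b*, *Nog*, *Id1* and *Id2* to the right in both, and *Bmp2*, *Bmp4*, *Bmp7* and *Bmpr1a* have 1 array on each side; the dim *Bmp4* probe, at the floor throughout, is left out.

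The targets *Id1* and *Id2* were the tested members whose treated pools lay wholly above the control pools (2 of 7 members, against 32.0% of all probes tested with groups that did not overlap in either direction). *Id1* read 4922 in the control and 6247 in the IWP-2 pool of replicate 1, and 5342 and 6141 in replicate 2. Its changes of 0.34 and 0.20 gave a mean of 0.27, which is 1.21-fold higher (SE 0.073, 95% interval 0.10 to 0.45, unadjusted p = 0.0091, limma adjusted p = 0.177). *Id2* read 13813 and 15060 in replicate 1, and 12191 and 16931 in replicate 2. Its change was larger in the male pair (0.47) than in the female pair (0.12), with a mean of 0.30, 1.23-fold higher (SE 0.097, 95% interval 0.06 to 0.53, unadjusted p = 0.021, limma adjusted p = 0.248). Neither passed the threshold. Over the 4 spots of an array the changes of *Id1* ran from 0.29 to 0.39 in replicate 1 and from 0.16 to 0.23 in replicate 2, and those of *Id2* from 0.09 to 0.17 and from 0.45 to 0.51. With the variance modelled on intensity, *Id1* passed (limma adjusted p = 0.0448), beside 453 calls over all probes. It also passed on the fold changes of the deposited series table (limma adjusted p = 0.0164), which are rounded to 1 decimal and gave 1776 calls over all probes. *Id2* passed under none of the alternatives run, and both genes were higher in all 16. That tally of directions, as for *Bmp5*, is no separate support.

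The marker lists of the urothelium, smooth muscle and macrophages had positive medians in both arrays. Of 13 tested urothelial probes, 11 were higher with IWP-2 in both arrays and 0 were called by limma (9 at an unadjusted p under 0.05), with a median change of 0.41 in replicate 1 and 0.17 in replicate 2. *Id1* was higher by more in the female pair, and *Id2* by more in the male pair. With 1 array per sex, a gene and a list can share the larger array without any link, so none was drawn. The summed signal of the 10 urothelial genes was 106675 in control and 137974 with IWP-2 in replicate 1, and 129345 and 139711 in replicate 2. Of 10 tested smooth muscle probes, 5 were higher in both arrays and 0 were called, with medians of 0.02 and 0.23, the larger in the male pair. The summed signal of the 9 smooth muscle genes was 100786 and 100724 in replicate 1, and 85755 and 100349 in replicate 2. All 8 tested macrophage probes were higher in both arrays and 0 were called, with medians of 0.21 and 0.12. The summed signal of the 5 macrophage genes, 1 of them under the test threshold, was 5001 and 5863 in replicate 1, and 5229 and 5964 in replicate 2. Each such sum takes the brightest probe of a gene. The part of these lists in the values of *Id1* and *Id2* was not tested.

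The other *Id* genes of the family differed in sign from *Id1* and *Id2*. *Id3* read 12213 in control and 11646 with IWP-2 in replicate 1, and 12539 and 11893 in replicate 2 (mean −0.07, SE 0.067, limma adjusted p = 0.816). *Id4* read 6286 and 5500 in replicate 1, and 5016 and 4880 in replicate 2 (mean −0.12, SE 0.074, limma adjusted p = 0.666). The differences between the family's genes were not tested. The 8 tested probes of the other BMP targets (*Id3* and *Id4*, the inhibitory SMAD genes *Smad6* and *Smad7*, *Atoh8*, *Msx1*, *Msx2* and *Gata6*) had changes between −0.19 and 0.06, with 5 lower in both arrays, 0 higher in both and 0 called.

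**Figure D3:**
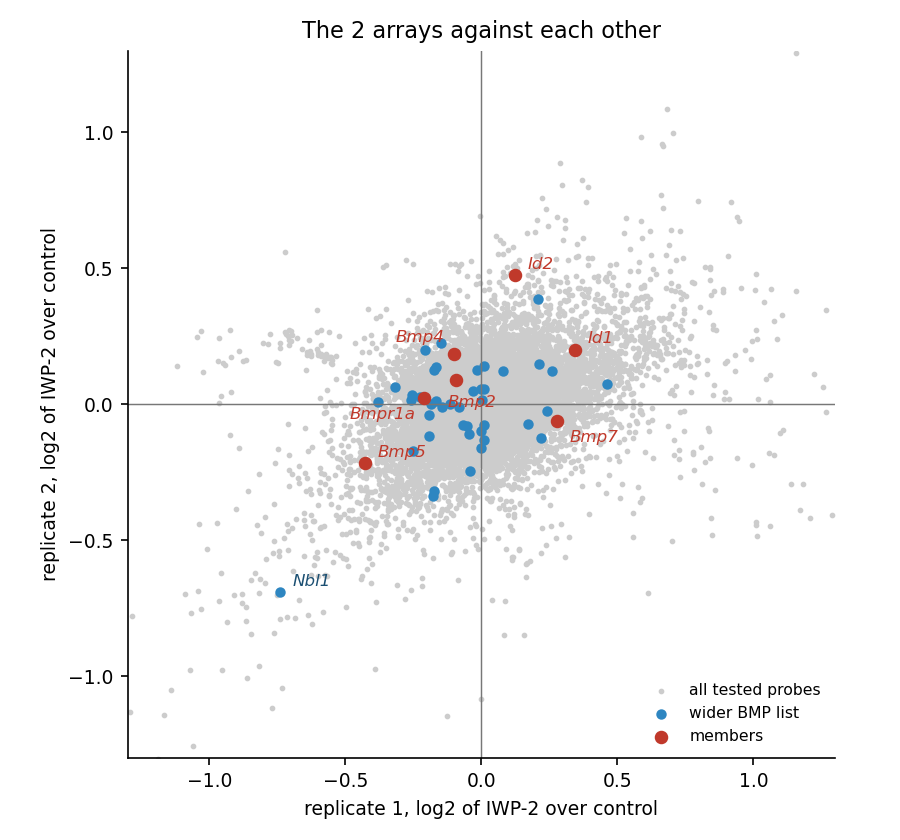
Log2 of IWP-2 over control in replicate 1 (x axis) and replicate 2 (y axis) for all tested probes (grey), the wider BMP list (blue) and the members (red); 44 probes lie outside the plotted range of 1.3 either way. *Bmp5* falls in the lower left quadrant and *Id1* and *Id2* in the upper right, within the cloud of all probes, whereas *Nbl1* lies at −0.74 and −0.69, at its edge.

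The wider list held 50 further genes of the pathway with 68 probes, of which 42 probes of 34 genes were tested. Of these, 1 was called, *Nbl1*, which was lower. The median change of the list was −0.05, with 14 probes lower in both arrays, 8 higher in both and 20 of opposite sign. *Nbl1* encodes a secreted BMP antagonist of the DAN family, to which Gremlin belongs too. Its signal was 2320 in the control and 1390 in the IWP-2 pool of replicate 1, and 2362 and 1464 in replicate 2. Both treated pools lay far below both control pools, and the pairs agreed closely, at −0.74 and −0.69. The mean of −0.71, 1.64-fold lower, passed limma's threshold (SE 0.068, 95% interval −0.88 to −0.55, adjusted p = 0.0158) and the 1.5-fold filter. The call was lost in 4 of the alternatives, with limma adjusted p-values of 0.161 when the channels were analysed separately, 0.122 on the deposited series table, and 0.445 and 0.443 when probes at the floor entered the fit. Across the 16 alternatives, single arrays included, the change ran from −0.74 to −0.67.

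Most listed markers of the lamina propria, the connective tissue layer under the urothelium, were lower beside *Nbl1*. Of 7 tested probes for 6 such genes, 5 were lower in both arrays, and *Aldh1a2* (−0.63), *Avpr1a* (−0.86) and *Itga4* (−1.19) were called by limma. These 3 calls were lost in the fit that took in the dim probes (limma adjusted p of 0.0817, 0.0555 and 0.0909). The other 2 probes, both of *Foxf1*, were higher in both arrays and not called. The list does not hold every gene that the study found in this layer. Among those left off, *Bmp4* (bright probe) had a mean change of 0.04 and *Axin2* of −1.91. The summed signal of the list, each gene by its brightest probe, was 22729 in control and 15982 with IWP-2 in replicate 1, and 17130 and 15562 in replicate 2. Their part in the change of *Nbl1* was not tested. Several of these markers were chosen by the study from the same tissue and treatment, so their direction is no independent evidence.

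The antagonists of the wider list (10 tested probes with *Nbl1* included, 5 lower in both arrays, 2 higher in both, median −0.13) held no other call. *Twsg1*, which encodes Twisted gastrulation, read 4392 in control and 3692 with IWP-2 in replicate 1, and 3970 and 3522 in replicate 2. Its treated pools lay below its control pools, without passing the test (mean −0.21, SE 0.069, limma adjusted p = 0.249). *Fstl1*, which encodes a follistatin-like protein, had a mean change of −0.11 (SE 0.089, limma adjusted p = 0.767), with arrays of opposite sign. Outside the rule for named genes, and chosen after their values were seen, *Fst* (−0.26), which encodes Follistatin, and *Fstl3* (−0.25) were lower in both arrays and *Bmper* (0.30), which encodes a BMP-binding modulator, was higher in both, none with a limma adjusted p under 0.166.

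Receptors, transducers and further ligands held no call. The 11 tested probes of 8 further receptor and co-receptor genes ranged from −0.13 to 0.19 with 0 calls. *Bmpr2*, the type II receptor gene of the family, read 1240 in control and 1075 with IWP-2 in replicate 1, and 1122 and 1288 in replicate 2, with opposite directions in the pairs (mean −0.0039, SE 0.11, limma adjusted p = 0.998). *Acvr1*, a type I receptor gene, had a mean change of −0.08 (SE 0.076, limma adjusted p = 0.831). The 11 tested transducer probes ranged from −0.08 to 0.18 with 0 calls, among them *Smad4*, the common partner SMAD gene (−0.06, SE 0.071), and *Smad5*, a BMP receptor substrate gene (−0.05, SE 0.068).

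Of the 10 further ligand genes 6 lay at the floor in all 4 pools and 2 were tested. *Bmp3*, whose product counters other BMPs, read 2559 in control and 3522 with IWP-2 in replicate 1, and 3282 and 3460 in replicate 2. It was higher in both arrays and more so in the female pair (mean 0.27, SE 0.10, limma adjusted p = 0.333). *Bmp6*, of the *Bmp5* and *Bmp7* subgroup, read 115 and 115 in replicate 1, and 88.5 and 84.0 in replicate 2 (mean −0.03, SE 0.069, limma adjusted p = 0.966). The pairs of *Bmp6* hardly differed.

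**Figure D4:**
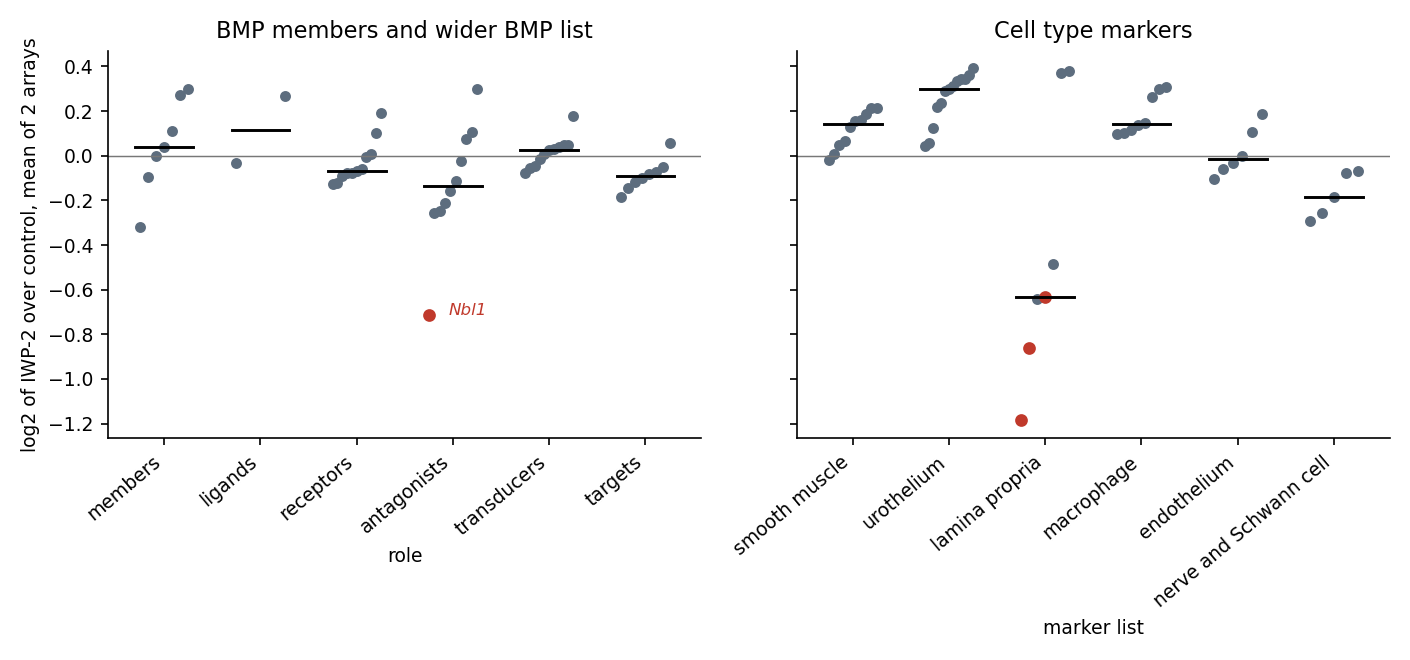
Mean log2 of IWP-2 over control of every tested probe of the members and the wider BMP list by role (left) and of the cell type marker lists (right), with black lines for list medians and red points for probes called by limma. *Nbl1* is the 1 call on the left; on the right the lamina propria list holds 3 calls and the urothelial list has its median at 0.30.

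Promoters were set beside these values for the members that the RefSeq promoter table holds (6 of 10 members, with 8 starts, build GRCm38.p6). The windows ran from 250 bases before to 50 bases after each start, and were searched on both strands for GGCGCC, a motif bound by SMAD1 and SMAD5, and for CTTTG followed by AA, AT, TA or TT, forms of the motif bound by TCF/LEF factors, the nuclear partners of beta-catenin. GGCGCC, which reads the same on both strands, was in 11.9% of all 32851 promoters and 1 or more of the TCF/LEF forms in 16.9%. GGCGCC lay 231 bases before the start of *Id2*, 198 before that of *Bmpr1a*, 78 before that of *Grem1* and 179 before that of *Nbl1*. A TCF/LEF form lay before each of the 3 starts of *Bmpr1b*, 210, 58 and 226 bases before it, and the last 2 of these were the same copy. The windows of *Bmp4* and *Bmp5* held neither. G and C made up 63.3% of the window of *Id2*, 79.3% of *Bmpr1a*, 70.7% of *Grem1* and 78.3% of *Nbl1*. In the windows of *Bmp4* and *Bmp5* they made up 64% and 43.3%. The share of GGCGCC over all promoters was not matched for G and C content. The 250 bases before the start are shown for *Id2*, *Nbl1* and *Bmpr1b* (the start 58 bases from its motif), since these are a target, the called antagonist and the receptor gene with a TCF/LEF form, with the motif in capitals.
Id2 (chr12:25096093-25096342, minus strand): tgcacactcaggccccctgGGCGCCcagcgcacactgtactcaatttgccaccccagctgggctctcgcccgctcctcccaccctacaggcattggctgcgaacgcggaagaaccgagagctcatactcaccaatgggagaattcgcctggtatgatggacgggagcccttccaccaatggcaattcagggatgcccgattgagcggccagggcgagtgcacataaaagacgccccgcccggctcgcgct
Nbl1 (chr4:139092971-139093220, minus strand): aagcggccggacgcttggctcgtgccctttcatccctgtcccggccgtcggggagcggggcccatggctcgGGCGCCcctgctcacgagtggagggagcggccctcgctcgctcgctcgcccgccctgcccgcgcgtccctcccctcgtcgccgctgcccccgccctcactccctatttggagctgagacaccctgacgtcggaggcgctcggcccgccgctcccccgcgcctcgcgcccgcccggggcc
Bmpr1b (chr3:141931589-141931838, minus strand): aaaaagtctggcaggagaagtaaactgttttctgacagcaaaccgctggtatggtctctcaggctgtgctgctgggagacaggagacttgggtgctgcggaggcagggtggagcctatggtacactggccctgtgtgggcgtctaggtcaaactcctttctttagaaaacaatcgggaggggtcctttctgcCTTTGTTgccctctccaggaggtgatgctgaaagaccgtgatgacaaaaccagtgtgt
The letters are a description of the windows and not evidence of binding. Genes with GGCGCC included 1 with a higher signal in both arrays (*Id2*), 1 that was called lower (*Nbl1*), 1 whose arrays disagreed (*Bmpr1a*) and 1 near the floor (*Grem1*).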

How the data were processed

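Two-colour arrays (Agilent, whole mouse genome) of 2 replicates, each an IWP-2 and a control pool, were used. The authors deposited scanner output with spot intensity in each dye, background-subtracted and dye-normalized by Feature Extraction (12.2.0.7 per the file headers, 10.7.3.1 in the submitters' processing notes), and with mm9 as build. The deposited log10 ratio of red over green was used only to check directions. The deposited flags, of the kind other than a measurement, mark outlier spots and spots well above background. The deposited series table holds a score, the authors' signed fold change of IWP-2 over control with 1 decimal. Its scaling is not given in the sources used here. Its direction was checked on the arrays, with the same sign in 99.9% of tested probes whose listed fold change exceeded 1 either way. The column medians over tested probes were −1 and 1.

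Control spots and the 5235 and 5075 flagged spots of 157716 per array were left out, and 0 spots were saturated. Intensities had each array's dye trend removed by loess (limma 3.58.1 under R 4.3.3), were averaged over spots, floored at 15 and turned into log2. Ratios were turned to IWP-2 over control, which pairs the pools of an array, and tested against 0 with lmFit and eBayes (1 residual degree of freedom) over probes with a mean signal over 100 in at least 1 condition. The study names no test for its arrays. Of the probes, 67.8% to 69.4% per channel were well above background. The number of arrays limits the precision, and p-values concern only the spread between these pools. For SEs, intervals and p-values that spread was moderated by eBayes towards the variance of all probes tested. The prior gave 5.19 of 6.19 total degrees of freedom, so they do not show each probe's own spread. The steps were run on simulated arrays with known changes as a check of the code. How often changes of the members' size were called there is not reported here.

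Members, gene lists and tests were chosen with earlier results of these data known. Named genes are all members, genes of the wider list that were called or past the 1.5-fold filter, the 2 brightest tested genes of each role there, *Axin2*, *Lgr5* and called markers. The marker lists of macrophages (8 of 8 tested probes higher in both arrays), smooth muscle (5 of 10), endothelium (2 of 6) and adipocytes (1 of 2) held 0 calls, as did those of nerve and Schwann cells (0 of 5 higher in both) and kidney (0 of 1). Alternatives covered background correction, normalization, flagged spots, spot summary, floor, filters, variance model, probe choice, separate channels, single arrays and the series table.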

Additional observations from a re-analysis of the deposited data

Results flagged for a closer look

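Of the members and of the wider pathway's genes chosen by the naming rule, each by its brightest probe, 4 had opposite signs in the 2 arrays, with every kept spot of an array on the side of its array. The female minus male difference in log2 change was −0.18 for *Bmp2*, −0.29 for the bright *Bmp4* probe, 0.34 for *Bmp7* and −0.41 for *Bmpr2*. With 1 array per sex the difference was not tested, and sex, dye orientation, pool and array cannot be told apart. Such opposite signs in every spot occurred in 24.4% of the 18403 tested probes, and 7.04% of them differed between the arrays by more than *Bmp7*. Single probes of *Kcp*, *Smad4*, *Smad7*, *Smad9*, *Smurf1* and *Smurf2* showed them too. Spots of 1 array share the RNA of 1 pair of pools, so their agreement says nothing of the spread between pools.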

How the results depend on the processing

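No member passed the 1.5-fold filter in any alternative, 1 array alone included, and 0 member probes were called except 1 (*Id1*) with the intensity trend and 1 (*Id1*) on the series table. Calls on the wider list were 0 with separate channels, with the well-above-background filter and with no filter, and 3 on the series table. Calls over all probes, 142 in the main setting, were 278 with normexp, 235 with median centring (108 lower and 127 higher, against 100 and 42), 453 with the trend, 9 with separate channels and no replicate block, 0 with the well-above-background filter, 0 with no filter and 1776 on the series table. The zeros arose where many probes at the floor in both channels, with a variance of 0, entered the fit, and with a filter chosen after seeing the data that left these out, 103 probes were called (84 lower). The filter took 72 probes, 20 at 2-fold and between 119 and 378 with 1 array left out, which leaves values and no test. With both arrays in, signs turned only for means near 0, namely *Bmp2* (0.0050 with normexp, 0.039 with median centring, 0.00090 with the median over spots), *Bmp6* (0.0050 with median centring) and *Bmpr2* (0.037 with median centring, 0.0040 with the median over spots, 0.063 on the series table). Median centring moved the median of all tested probes from −0.0025 to 0.04. Normexp, by taking in dim members, gave a member median of 0.17 over 11 probes. No paired analysis was possible beyond the ratio itself because the samples form 1 group in which each array already pairs its pools.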
